A study of Mus musculus with 4 samples.

Results

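Id1, Id2 and Id3 encode the inhibitor of DNA binding proteins, and they were taken by gene symbol from the 4 deposited tables, as 3 of 24411 symbols. All 3 symbols are present, and 2 of them, Id2 and Id3, had enough reads to be tested. The tables come from RNA sequencing of B cells sorted from mouse bone marrow (tibia and femur) for B220, a protein found on the surface of B cells. In the design, 2 libraries labelled Arid5b overexpression are set against 2 wildtype libraries, to ask how raised Arid5b, which encodes a chromatin-associated protein that binds DNA, changes B cells. The labels give no promoter or construct for the overexpression, no strain, age or sex, and no batch. They do not say how many mice went into a library, so p-values measure only the spread between these libraries.

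Id proteins have a helix-loop-helix domain for pairing but no basic region for binding DNA. They pair with the E proteins, the helix-loop-helix activators encoded by Tcf3, Tcf12 and Tcf4, and keep them off E-box sites. E proteins drive early B cell development together with Ebf1 and Pax5. Id3 is known as a brake on E proteins in lymphocytes, and Id2 is known for its role in natural killer cells, innate lymphoid cells and dendritic cells. Id1 is known as a target of bone morphogenetic protein (BMP) signalling.

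The libraries held 14196665 to 20356404 reads assigned to genes, of which the ribosomal RNA precursor Rn45s took 25.7% to 30.5%. Arid5b itself had 58127 and 2770 reads in overexpression-labelled libraries 1 and 2, against 2993 and 2465 reads in wildtype libraries 1 and 2. It was thus high in 1 of the 2 libraries that carry the overexpression label, and overexpression-labelled library 2 goes against its label. Each of these libraries (library 1 and library 2 where no wildtype is named) was therefore also compared singly with wildtype, and both of these comparisons use the same wildtype libraries. A lone library has no spread of its own and was taken to vary as much as the wildtype libraries, so such a test compares a library, not a genotype. Wildtype library 1 also differed from the other 3 in sex-linked genes, with 24 reads of Xist where they had 68540 to 132008.

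Among the 4 libraries Id2 was low in overexpression-labelled library 1 alone, Id3 lay between 28.6 and 48.9 CPM (reads of the gene per 1000000 reads assigned to genes) in all 4, and Id1 was almost absent from all of them. Id2 had 3.66 and 49.96 CPM in overexpression-labelled libraries 1 and 2, against 34.5 and 28.8 CPM in wildtype libraries 1 and 2. One library labelled overexpression was thus below both wildtype libraries and the other above both, and the groups overlapped. The low value rests on 56 reads, whose counting interval is 2.77 to 4.76 CPM (95%, exact Poisson, counting error only). Overexpression-labelled library 2 had 1017 reads of Id2, and the wildtype libraries had 696 and 409.

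Id3 had 48.9 and 28.6 CPM in overexpression-labelled libraries 1 and 2, against 38.9 and 29.4 CPM in wildtype libraries 1 and 2. These values rest on 748 and 582 reads in the overexpression-labelled libraries and on 784 and 417 reads in wildtype. Overexpression-labelled library 1 was above both wildtype libraries and overexpression-labelled library 2 just below both, so the groups overlapped here too. Id1 had 0 and 2 reads in overexpression-labelled libraries 1 and 2 and 0 reads in both wildtype libraries. By the limit of 3 reads, a count of 0 allows up to 0.196 CPM in overexpression-labelled library 1, and 0.149 and 0.211 CPM in the wildtype libraries; the upper ends of the two-sided 95% Poisson intervals are 0.241, 0.183 and 0.260 CPM. The 2 reads of Id1 in overexpression-labelled library 2 came to 0.0982 CPM, under the 0.147 CPM that 3 reads are worth there, so no fold is given for Id1. Id4, the remaining gene of the family, had 1 read in overexpression-labelled library 1 and 0 elsewhere.

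**Figure D1:**
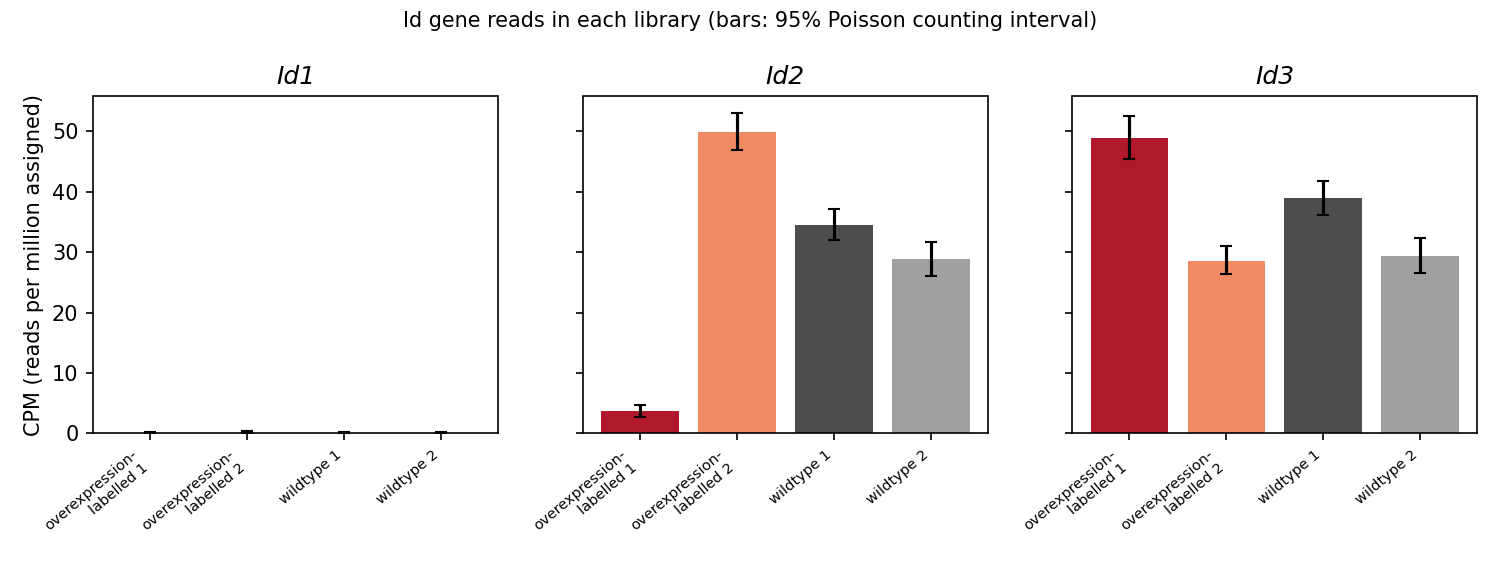
Reads of Id1, Id2 and Id3 in each library, as CPM on a linear axis from 0, with a bar for each library and its 95% Poisson counting interval. Id2 is at 3.66 CPM in overexpression-labelled library 1 and between 28.8 and 49.96 CPM in the other 3 libraries, whereas Id3 lies between 28.6 and 48.9 CPM throughout and Id1 near 0.

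The members lie on different chromosomes in GRCm38, the assembly of the mm10 build. Id2 (ENSMUSG00000020644.9) lies on chromosome 12, minus strand, at 25093799 to 25097140. Id3 (ENSMUSG00000007872.3) lies on chromosome 4, plus strand, at 136143497 to 136145755, and Id1 (ENSMUSG00000042745.9) on chromosome 2, plus strand, at 152736251 to 152737410. The 250 bases before the RefSeq start of Id2 (chr12:25096093-25096342, minus strand) and Id3 (chr4:136143572-136143821, plus strand) are shown because these 2 genes of a single family took different levels in overexpression-labelled library 1. They come from RefSeq (GRCm38.p6), where 2 of the 3 members matched. Both windows lie inside the gene spans given above, which are from GENCODE and begin upstream of the RefSeq starts. Capitals mark the E-box CANNTG, the sequence that E proteins bind.
Id2: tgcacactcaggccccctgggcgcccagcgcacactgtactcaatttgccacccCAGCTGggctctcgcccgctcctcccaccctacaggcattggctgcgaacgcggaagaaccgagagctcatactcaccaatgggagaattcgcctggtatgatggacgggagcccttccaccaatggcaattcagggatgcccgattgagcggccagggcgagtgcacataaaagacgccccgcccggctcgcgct
Id3: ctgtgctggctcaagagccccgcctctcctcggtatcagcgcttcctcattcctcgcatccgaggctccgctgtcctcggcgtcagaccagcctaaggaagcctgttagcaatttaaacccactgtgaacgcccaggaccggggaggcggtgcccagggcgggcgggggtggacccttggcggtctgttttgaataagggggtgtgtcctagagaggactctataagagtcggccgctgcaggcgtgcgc

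The Id2 window holds 1 E-box, which begins 196 bases before the start, and the Id3 window holds 0. Of 32851 promoter windows of the same length in that table, 66.2% hold at least 1 E-box. The Id2 window also holds 3 CCAAT boxes on either strand, beginning 159, 120 and 76 bases before the start, and the Id3 window holds 0. At least 3 CCAAT boxes were found in 2.79% of all windows, and at least 1 in 33.8%. GGCGCC, a motif bound by SMAD proteins, occurs once in the Id2 window, 231 bases before the start, and in 9.59% of all windows. The motif of EGR factors, GCGNGGGCG, was searched on both strands and is in neither window (4.70% of all windows), and likewise TATAAA (12.4%). A match describes the letters in these windows only, and both windows have 62.8% G and C.

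Compared as groups, the libraries labelled overexpression and wildtype gave no call for either member. On the deposited log2 scale Id2 averaged 9.28 ± 2.44 in the libraries labelled overexpression and 10.36 ± 0.20 in wildtype (SD, n = 2 each). The difference was -1.08 (SE 1.20, limma adjusted p = 0.746), smaller than the spread within the libraries labelled overexpression. Id3 averaged 10.53 ± 0.42 in the libraries labelled overexpression and 10.45 ± 0.30 in wildtype (SD, n = 2 each), a difference of 0.08 (SE 0.37, limma adjusted p = 0.932). By limma 0 of 12617 genes passed the threshold of 0.05 in this comparison (0%), 280 had an unadjusted p under 0.05, and limma-voom gave 0 and 186. Leaving out overexpression-labelled library 1 turned the Id2 difference to 0.65 and that of Id3 to -0.22. Without wildtype library 2 the Id3 difference was -0.13.

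Set alone against the wildtype pair, overexpression-labelled library 1 had less Id2. It differed from wildtype by -2.80 on the log2 scale (SE 0.25, limma adjusted p = 6.27e-07), and normalised reads were 9.58-fold lower. In this comparison 7721 of 12617 genes passed (61.2%), of which 3377 rose (26.8%) and 4344 fell (34.4%), so a call by itself says little about a gene here. The balance of these calls turned with the processing: 3933 rose and 3708 fell with library totals without Rn45s, and 1510 rose and 1132 fell with no filter. By size the fall of Id2 was the 511th deepest of the 12617. Its call depends on the filter on low counts. With no filter the difference was the same and its SE smaller, but Id2 did not pass. Tcf4, with 2319 reads in library 1 and 6313 and 3904 in wildtype, also lost its call with no filter. A call lost in this way thus does not by itself mark a gene with few reads. Scaling shifts genes in the same direction, but by less where reads are few. The median difference of all genes was -0.15 on the deposited scale, -0.03 with library totals and 0.02 with totals without Rn45s. With library totals the Id2 difference was -2.69, and with totals without Rn45s it was -2.65.

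Id3 differed from wildtype by 0.37 (SE 0.21, limma adjusted p = 0.139) in overexpression-labelled library 1, a ratio of normalised reads of 1.29. The wildtype libraries themselves differed 1.36-fold in Id3 and 1.23-fold in Id2. Scaled by library totals the Id3 difference was 0.51 with an adjusted p of 0.033, so whether it passes depends on the scaling. In overexpression-labelled library 2 neither member passed, where 209 genes did (1.66%), of which 0.769% of the genes tested rose and 0.888% fell. Id2 differed from wildtype by 0.65 (SE 0.20, limma adjusted p = 0.132) and Id3 by -0.22 (SE 0.22, limma adjusted p = 0.672). By limma-voom Id2 passed in this library with a difference of 0.66 (adjusted p = 0.0463).

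The 2 libraries labelled overexpression differed from each other more than either differed from wildtype in Id2. Overexpression-labelled library 1 minus overexpression-labelled library 2 was -3.46 for Id2 (SE 0.26, limma adjusted p = 2.91e-07) and 0.59 for Id3 (SE 0.25, limma adjusted p = 0.0597). In this contrast 52.6% of the genes tested passed, 22.4% higher and 30.1% lower in library 1. The Id3 contrast passed with recomputed size factors (adjusted p = 0.0409), library totals (0.0127) and totals without Rn45s (0.0334).

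Per length of exon, the order of Id2 and Id3 differed between the libraries. Id3 had 27.3 and 16.0 RPKM (CPM divided by kilobases of exon) in overexpression-labelled libraries 1 and 2, against 21.7 and 16.4 RPKM in wildtype libraries 1 and 2. Id2 had 1.503 and 20.5 RPKM in overexpression-labelled libraries 1 and 2, against 14.2 and 11.8 RPKM in wildtype libraries 1 and 2. Id3 thus supplied 94.8% of the summed Id level in overexpression-labelled library 1 and 43.7% in library 2, against 60.5% and 58.1% in wildtype. Id3 was the higher gene in overexpression-labelled library 1 and in both wildtype libraries, and Id2 in overexpression-labelled library 2. With the longest transcript in place of all exons these orders were the same in the 4 libraries. Id1 came to 0.0847 RPKM in overexpression-labelled library 2.

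The E protein genes, which encode the partners of Id proteins, also changed in overexpression-labelled library 1, where 2 of 3 rose and 1 fell (background 26.8% and 34.4%). Tcf3 had 143 and 67.6 CPM in overexpression-labelled libraries 1 and 2, against 46.5 and 48.3 CPM in wildtype libraries 1 and 2. It was above both wildtype libraries in both libraries labelled overexpression, and rose by 1.41 in library 1 (SE 0.16, limma adjusted p = 5.23e-06). In library 2 its difference of 0.51 did not pass (SE 0.17, limma adjusted p = 0.162), nor did that of both groups (0.96, limma adjusted p = 0.726). Tcf12, which encodes HEB, had 245 and 119 CPM in overexpression-labelled libraries 1 and 2, against 137 and 153 CPM in wildtype. It rose by 0.61 in library 1 (limma adjusted p = 0.00172) and differed by -0.27 in library 2 (limma adjusted p = 0.381).

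Tcf4, the E protein gene that plasmacytoid dendritic cells need, went the other way. It had 152 and 301 CPM in overexpression-labelled libraries 1 and 2, against 313 and 275 CPM in wildtype libraries 1 and 2. The fall in library 1 was -1.09 (SE 0.14, limma adjusted p = 1.51e-05), and in library 2 the difference was 0.05 (limma adjusted p = 0.899). Without the filter on low counts, Tcf4 and Tcf12 no longer passed in library 1 (adjusted p = 0.078 and 0.086), while Tcf3 did. Overexpression-labelled library 1 differed from library 2 in all 3 genes, by 0.90 for Tcf3 (limma adjusted p = 0.00121), 0.88 for Tcf12 (0.000538) and -1.14 for Tcf4 (6.34e-05). The tables give a value per gene, so the splice forms of Tcf3 cannot be told apart.

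Summed per length, the Id genes stood at 28.8 and 36.5 RPKM in overexpression-labelled libraries 1 and 2, against 35.9 and 28.2 RPKM in wildtype libraries 1 and 2. The E protein genes summed to 56.6 and 35.4 RPKM in overexpression-labelled libraries 1 and 2, against 31.8 and 31.9 RPKM in wildtype. Id RNA per E protein RNA was therefore 0.509 and 1.03 in overexpression-labelled libraries 1 and 2, against 1.13 and 0.885 in wildtype libraries 1 and 2. Overexpression-labelled library 1 had the lowest ratio, and the other 3 libraries lay between 0.885 and 1.13. With the longest transcript as the length the ratios were 0.383 and 0.623 in overexpression-labelled libraries 1 and 2, against 0.648 and 0.517 in wildtype libraries 1 and 2. By that length the E protein genes summed to 105 and 76.8 RPKM in overexpression-labelled libraries 1 and 2, against 74.0 and 72.8 RPKM in wildtype. Library 1 still had the lowest ratio, with wildtype library 2 the nearest to it. The level of the ratio and the gap between libraries depend on the gene models, and the ratio was not tested.

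**Figure D2:**
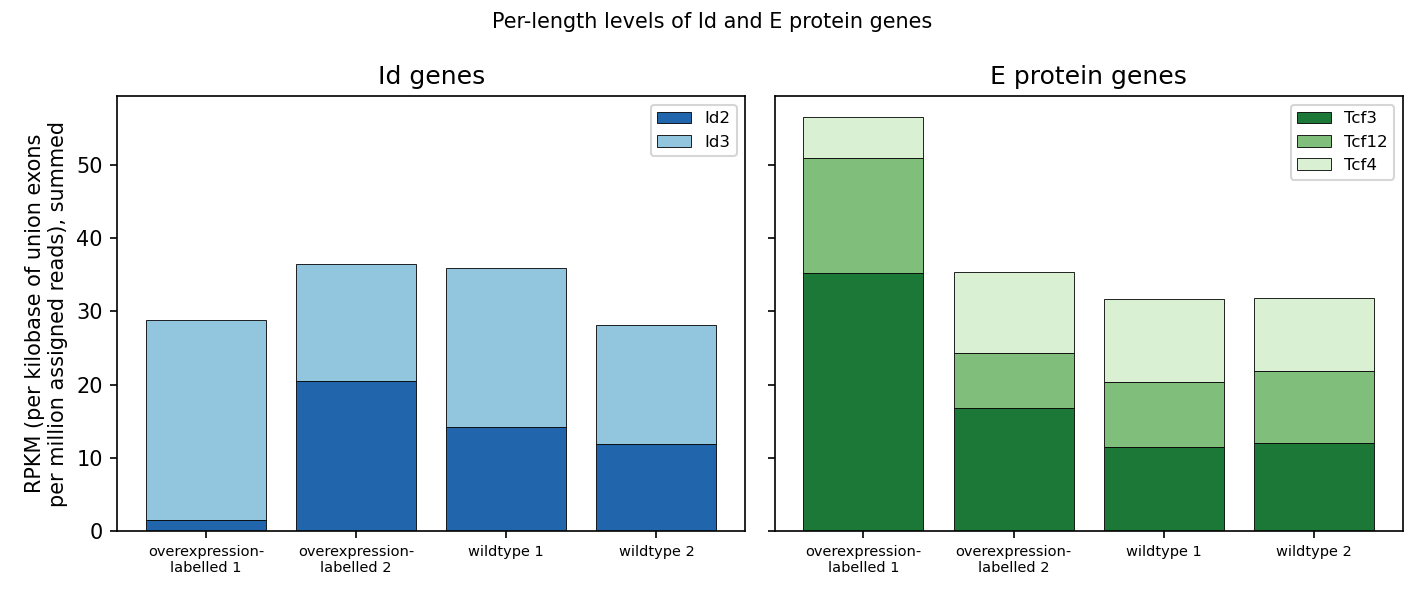
RPKM of the Id genes (left) and the E protein genes (right), stacked by gene, for each library on a linear axis from 0; Id1 is too low to draw. In overexpression-labelled library 1 the Id sum of 28.8 RPKM is nearly all Id3 and the E protein sum is 56.6 RPKM, whereas in the other libraries that sum is between 31.8 and 35.4 RPKM.

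Of 18 B lineage genes linked to E proteins, 14 were tested, and in overexpression-labelled library 1 they divided evenly, with 6 higher and 6 lower (background 26.8% and 34.4%; median -0.01, against -0.15 over all genes tested). Il7r, the receptor chain for interleukin 7, rose by 5.51, Vpreb3 by 3.59 and the coactivator Pou2af1 by 2.03, while the adaptor Blnk fell by 2.99. Of these calls, those of Il7r and Pou2af1 were lost with no filter on low counts. Another 4 genes, Rag1, Rag2, Igll1 and Vpreb1, were too low outside library 1 to be tested. They were high in library 1 alone, so the even split leaves them out. Igll1, for example, had 36095 reads there and 0 in the other 3 libraries. All 18 genes summed to 10016 and 6037 CPM in overexpression-labelled libraries 1 and 2, against 5412 and 5904 CPM in wildtype libraries 1 and 2. In overexpression-labelled library 2, Pou2af1 rose by 1.26 (limma adjusted p = 0.00141) and Foxo1, a regulator of recombinase genes, fell by 0.89 (limma adjusted p = 0.00756). Both calls in library 2 were lost with no filter and with a minimum mean of 10 reads.

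Among other helix-loop-helix genes, 8 of 15 tested fell and 1 rose in overexpression-labelled library 1 (background 34.4% and 26.8%; median -0.44), 9 of 15 in either direction against 61.2% of all genes, and 0 passed in library 2. The repressor Bhlhe40 had 4.71 and 485 CPM in overexpression-labelled libraries 1 and 2, against 333 and 377 CPM in wildtype libraries 1 and 2, and fell by 5.96 in library 1 (limma adjusted p = 3.69e-12). Bhlhe41, its close relative, fell by 5.46, the aryl hydrocarbon receptor gene Ahr by 5.65 and the Notch target Hes1 by 1.89. The call of Hes1 was lost with no filter. Tal1, an E protein partner of early blood cells, was not tested; it had 161 and 5 reads in overexpression-labelled libraries 1 and 2 and 0 in both wildtype libraries. Tal1 and Igll1 were picked out after their values were seen.

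Genes of the pathways known to induce Id genes were described next. EGR factors act downstream of antigen receptor signals and induce Id3 in thymocytes. Egr1 had 151 and 1440 CPM in overexpression-labelled libraries 1 and 2, against 890 and 1509 CPM in wildtype libraries 1 and 2. Egr2 had 9.03 and 243 CPM in the libraries labelled overexpression, against 105 and 177 CPM in wildtype. Egr3 had 1.96 and 175 CPM in the libraries labelled overexpression, against 111 and 167 CPM in wildtype. Id3 had its highest value in overexpression-labelled library 1, at a ratio to wildtype of 1.29. The wildtype libraries themselves differed 1.36-fold in Id3, and a link between Id3 and the EGR genes was not tested. Egr1, Egr2 and Egr3 were all lowest in overexpression-labelled library 1. Their differences from wildtype there were -3.07, -3.84 and -5.45 (limma adjusted p = 3.95e-08, 1.49e-08 and 3.51e-10).

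Of the EGR corepressor genes, Nab1 fell by 0.71 in library 1 and Nab2 differed by 0.10 (limma adjusted p = 0.753). Of this list 4 of 5 genes tested fell in library 1 (background 34.4%; median -3.07) and 0 of 5 passed in library 2 (background 1.66%). With no filter the fall of Egr3 still passed and those of Egr1, Egr2 and Nab1 did not (adjusted p = 0.0879, 0.0716 and 0.0508). Egr4 had 0 and 30 reads in overexpression-labelled libraries 1 and 2 and 2 and 3 reads in wildtype, and was not tested.

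BMP and TGF-beta receptors act on Id genes through SMAD proteins. Of 33 genes of this pathway 24 were tested, and 16 fell and 3 rose in overexpression-labelled library 1 (background 34.4% and 26.8%; median -1.09, against -0.15 over all genes). Smad1, a transducer of BMP signals, had 0 and 6.24 CPM in overexpression-labelled libraries 1 and 2, against 19.1 and 13.1 CPM in wildtype libraries 1 and 2. Both libraries labelled overexpression were below both wildtype libraries, with differences of -4.48 (limma adjusted p = 2.49e-07) in library 1 and -1.16 (limma adjusted p = 0.0772) in library 2. With 0 reads in library 1, its difference there rests on the floor of the deposited scale and is no bound. The ligand gene Tgfb3 fell by 3.16 in library 1.

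The receptor genes of this pathway moved both ways in library 1, where Bmpr1a and Acvr1 rose while Bmpr2, Acvrl1 and Acvr2a had differences of -2.96, -1.74 and -1.54 and passed with no filter too. The last 3 were picked out after their values were seen, so passing with no filter adds no support for them. Acvrl1 had 0 reads in library 1, so its difference there rests on the floor of the deposited scale. Bmpr1a had 69.6 and 8.30 CPM in overexpression-labelled libraries 1 and 2, against 1.54 and 3.94 CPM in wildtype libraries 1 and 2, and rose by 4.03 in library 1 (SE 0.36, limma adjusted p = 6.37e-07). Acvr1 rose by 3.39, with 189 and 0 reads in the libraries labelled overexpression against 13 and 0 reads in wildtype. In library 2 the Bmpr1a difference was 1.33 (limma adjusted p = 0.14), and 0 of 24 genes of the pathway passed. With no filter the calls of Smad1, Bmpr1a and Acvr1 were lost and that of Tgfb3 was not.

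Id proteins are short-lived, and of 6 genes of their turnover 3 rose and 1 fell in overexpression-labelled library 1 (background 26.8% and 34.4%; median 0.30), 4 of 6 in either direction against 61.2% of all genes. Usp1, which removes ubiquitin from Id proteins in human cells, had 207 and 40.6 CPM in overexpression-labelled libraries 1 and 2, against 70.9 and 60.9 CPM in wildtype libraries 1 and 2. It rose by 1.48 in library 1 (SE 0.16, limma adjusted p = 3.27e-06) and differed by -0.66 in library 2 (limma adjusted p = 0.0964). Cops5, a subunit of the COP9 signalosome, rose by 1.40, Cdc27, a subunit of the anaphase-promoting complex, rose by 0.43, and the ubiquitin ligase gene Smurf2 fell by 0.75. With no filter 0 of these 4 calls remained. Over the 6 pathway lists 50 of 66 genes tested passed in library 1 (background 61.2%), 16 of them also with no filter, where 2642 of 17905 genes passed. In library 2, where 2 of the 66 passed, of the genes named above Bhlhe40, Egr2, Bmpr1a, Smad1 and Usp1 also passed by limma-voom (adjusted p = 0.0226, 0.00274, 0.0167, 0.0256 and 0.0293), and Egr2 and Smad1 with library totals (0.0357 and 0.0322).

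**Figure D3:**
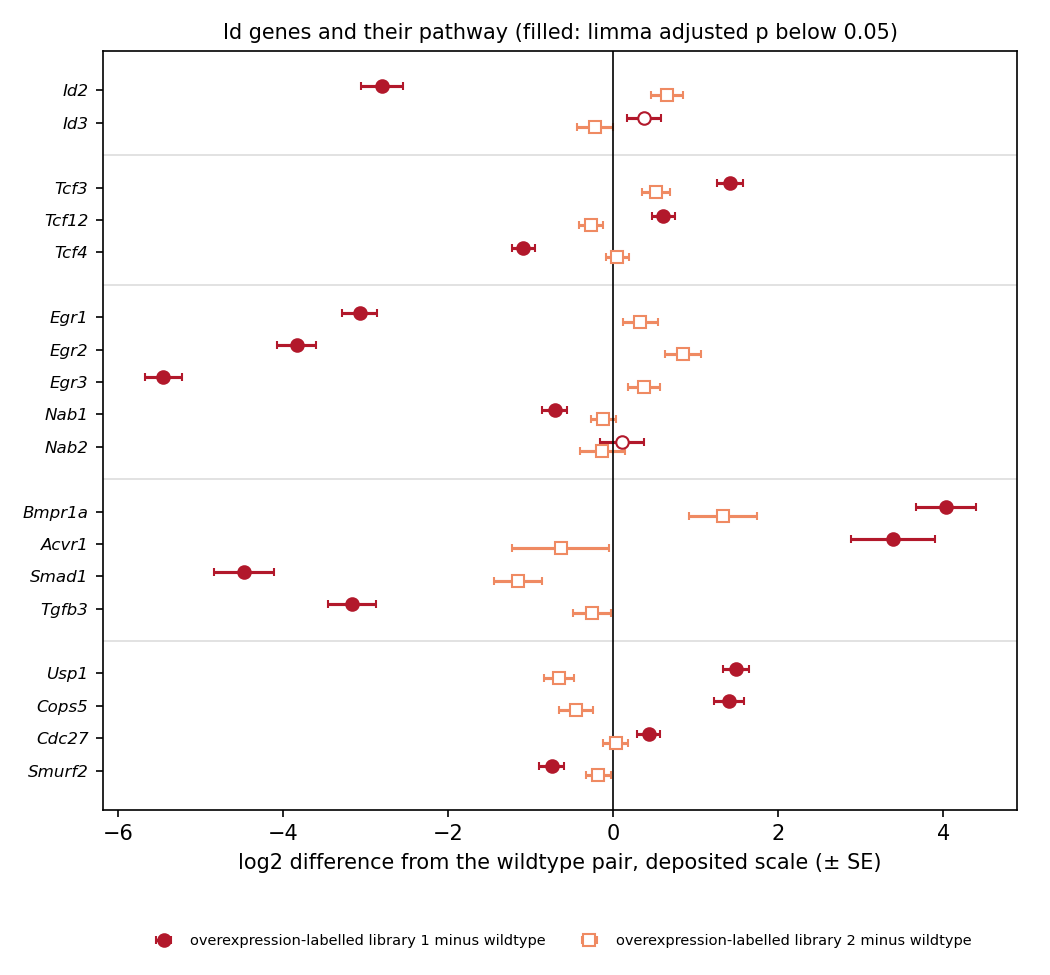
Log2 difference of each overexpression-labelled library from the wildtype pair, with its SE, for the tested Id genes, the E protein genes and 13 genes of the EGR, BMP and turnover lists; filled symbols passed by limma. In overexpression-labelled library 1, Id2 lies at -2.80 and Id3 at 0.37, with the EGR genes between -5.45 and -3.07; among the genes drawn, the symbols of library 2 are open.

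In bulk RNA, fewer cells of a type and less RNA per cell cannot be told apart, and cell types other than B cells that use Id2 were measured beside it. The 10 natural killer cell genes summed to 1.51 and 26.3 CPM in overexpression-labelled libraries 1 and 2, against 41.1 and 49.2 CPM in wildtype libraries 1 and 2. Of these, 9 of 10 fell in library 1 (background 34.4%, as for the lists that follow), and 1 of 10 with no filter. In that library Klrd1, Nkg7, Gzma, Tbx21 and Klre1 had 0 reads. Conventional dendritic cell genes fell in 4 of 5 tested, among them Itgax, Zbtb46 and Cd209a with differences of -2.96, -2.94 and -2.97, while Cst3 rose by 1.14; with no filter only Cst3 passed. Their sum, mostly Cst3, was 218 and 113 CPM in the libraries labelled overexpression and 115 and 117 CPM in wildtype. Clec9a had 0 and 11 reads in the libraries labelled overexpression, against 60 and 8 in wildtype libraries 1 and 2. Batf3 was near absent throughout, with 0 reads in both libraries labelled overexpression and 1 and 3 in wildtype. The part of these cells in the low Id2 of library 1 was not tested.

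In overexpression-labelled library 2, where the Id2 difference did not pass, 1 of 10 natural killer cell genes fell (Gzma; background 0.888%). Neutrophil genes summed to 1613 CPM there and 141 CPM in overexpression-labelled library 1, against 6.20 and 109 CPM in wildtype, and 9 of 9 tested rose in library 2 (background 0.769%). With no filter, or with a minimum mean of 10 reads, 0 of these 9 calls in library 2 remained, nor did that of Gzma. Over the 9 neutrophil genes tested, the median difference from wildtype was 5.16 in library 2 and 1.77 in library 1. None of the 10 neutrophil genes had 0 reads in the libraries labelled overexpression, and 5 and 1 had 0 reads in wildtype libraries 1 and 2. Their part in the Id2 level of library 2 was not tested. The 8 plasmacytoid dendritic cell genes summed to 99.7 and 494 CPM in overexpression-labelled libraries 1 and 2, against 571 and 474 CPM in wildtype, and 7 of 8 fell in library 1 (2 of 8 with no filter), where Klk1 had 0 reads. Tcf4 was low in the same library, and their part in it was not tested. T cell genes fell in 7 of 8 in library 1 (3 of 8 with no filter), with sums of 7.13 and 28.1 CPM in the libraries labelled overexpression and 48.9 and 46.6 CPM in wildtype, and Cd8a and Bcl11b had 0 reads in library 1.

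Markers of B cell stage differed between the same libraries. The 8 mature B cell genes summed to 494 and 18504 CPM in overexpression-labelled libraries 1 and 2, against 19526 and 20338 CPM in wildtype libraries 1 and 2, and 7 of 8 fell in library 1, with no filter too. The 8 genes of cycling cells summed to 2816 and 176 CPM in the libraries labelled overexpression, against 117 and 122 CPM in wildtype, and 8 of 8 rose in library 1 (background 26.8%; 6 of 8 with no filter). No gene of these lists had 0 reads in any library. The B lineage itself was present in every library: its 8 identity genes summed to 3288 and 5281 CPM in the libraries labelled overexpression and to 4808 and 5355 CPM in wildtype. Of these 8 genes, 5 fell and 3 rose in library 1 (background 34.4% and 26.8%), and 0 passed in library 2. Ptprc, whose product carries the B220 epitope, fell by 2.47 in library 1, while Cd79b rose by 1.10. The part of B cell stage and cell cycle in the Id2 and Id3 levels was not tested.

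**Figure D4:**
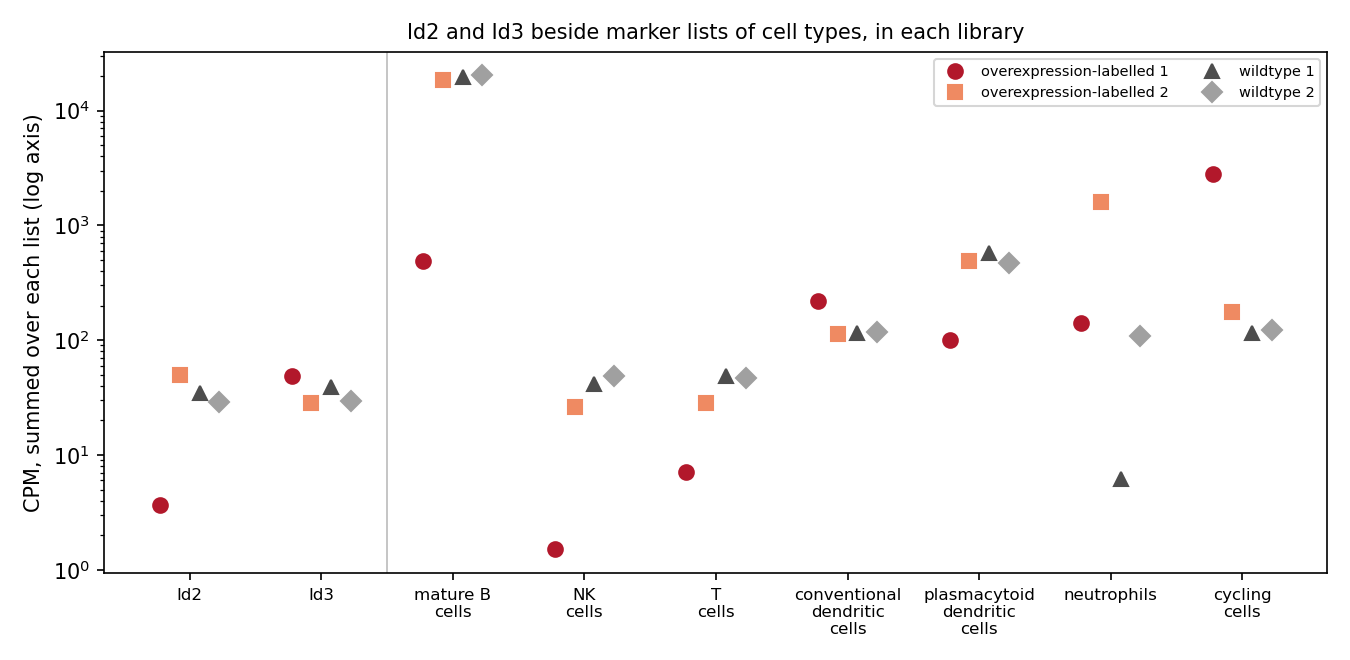
CPM of Id2 and Id3 and the summed CPM of marker lists in each library, on a log axis. Overexpression-labelled library 1 is lowest in Id2 (3.66 CPM), natural killer cell genes (1.51 CPM) and mature B cell genes (494 CPM). It is highest in Id3 (48.9 CPM), genes of cycling cells (2816 CPM) and conventional dendritic cell genes (218 CPM, mostly Cst3).

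The genes nearest to each member in their pattern were found by distance over the 4 deposited values, each centred on its own mean. Nearest to Id2 were Tmem8b (distance 0.136 log2 units), Angel1 (0.216), Thnsl1 (0.266), Tmem88 (0.286) and Klf5 (0.300), all with at most 1 read in overexpression-labelled library 1. Their own levels in wildtype were 2.75 to 6.85 CPM. On the deposited scale the change of genes with few reads is smaller than it is in reads. Nearest to Id3 were Zbtb14 (0.0284), Cactin (0.0408), Ano10 (0.0535), Dnpep (0.0585) and Apmap (0.0589), which, like Id3, were highest in overexpression-labelled library 1 and next in wildtype library 1. With 4 libraries such likeness is only a description.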

How the data were processed

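The authors deposited 1 table per library with a log2 value for each of 24411 gene symbols. Per the submitters' processing notes, STAR, HTSeq and DESeq2 were used with mm10; versions, settings, strand and annotation are not given in the sources used here. Genes without reads share a floor of 4.95 on the deposited log2 scale, and the values have the form of a variance stabilizing transformation. Undoing it gave whole reads for 100% of values (within 0.01), and CPM, RPKM and folds come from these reads. The header of overexpression-labelled library 1 differs by a digit from its sample title, and the genotype of wildtype library 2 is misspelled; libraries are numbered in accession order.

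A gene was kept (12617 genes) if it had 15 reads in all and, in 2 or more libraries, 10 or more reads after scaling to the median depth. Tests were limma-trend (limma 3.58.1, R 4.3.3) on the deposited values, two-sided, adjusted by Benjamini-Hochberg over all genes kept, with a threshold of 0.05. Differences understate the change of genes with few reads. Exon lengths are from GENCODE M21, which may not be the authors' annotation. Of the fits, those over both groups and of library 1 against wildtype were run on simulated reads. Far fewer genes were changed there than passed in library 1, so that run does not check the calls in library 1. Members, lists and the rule for named genes (every E protein and EGR gene, up to 4 per list by size of difference in library 1 and 2 in library 2, and the 5 nearest patterns) were chosen with earlier results of these data known. Alternatives were other size factors and totals, log2 of reads plus 0.5, 2 other filters, limma-voom, a robust prior, leaving out each library, and another gene length.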

Additional observations from a re-analysis of the deposited data

How the results depend on the processing

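No paired analysis was possible because the labels give no replicate numbers. In overexpression-labelled library 1 the Id2 difference ran from -3.26 to -2.65 over 10 alternatives, and its call was lost only with no filter (-2.80, adjusted p = 0.0511); the Id3 difference ran from 0.16 to 0.58 and passed with library totals alone (0.51). In library 2 Id2 ran from 0.51 to 0.79 and passed by limma-voom alone (0.66), and Id3 from -0.43 to -0.01. Between these libraries the Id2 difference ran from -3.93 to -3.29 and stayed past the threshold in the 8 alternatives; that of Id3 passed with recomputed size factors (0.70), library totals (0.74) and totals without Rn45s (0.79). Over both groups, leaving out a library in turn gave differences between -2.80 and 0.65 for Id2 and between -0.22 and 0.37 for Id3, with -0.13 without wildtype library 2 and, for Id2, a call (-2.80) without overexpression-labelled library 2. The number of genes past the threshold was 0 over both groups, and 0 to 7721 with a library left out (1 without wildtype library 2, 209 and 7721 without overexpression-labelled library 1 and 2). With no filter it was 2642 in place of 7721 in library 1, and 2486 in place of 6631 between the libraries labelled overexpression. In library 2 it was 209, against 70 with recomputed size factors, 58 with totals without Rn45s, 56 with log2 of reads plus 0.5, 0 with no filter or a minimum mean of 10 reads (2316 and 1575 at an unadjusted p under 0.05), and 614 by limma-voom. The cause of these changes was not tested. Depth limits Id1 alone among the members. With 1 wildtype library left out, a lone library gives values and no test.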
